A study of Mus musculus with 14 samples.

Results

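The genes described here are Smcp, Prm1, Krt23, Kcnk1, Defb1 and Metrn, which are best known from tissues other than liver and whose signal changed strongly in mouse livers given a short hairpin RNA against Jnk1. They were taken as every probe set of the array that the platform annotation assigns to one of these symbols, which gave 11 of 22690 probe sets and 6 of 12394 genes. The 6 symbols themselves were picked from measured values of these arrays, for their difference between the livers given the Jnk1 hairpin and the others. Their differences between groups are therefore given as a description, with no test.

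The series holds 14 Affymetrix arrays of total liver RNA from C57BL/6J DIO mice, the usual abbreviation for diet-induced obesity. All 3 groups share this strain and DIO state. The vehicle group has 5 arrays, numbered 1 to 5. The control hairpin group received GFP Adv-shRNA, a hairpin against green fluorescent protein that mouse liver does not make, and has 4 arrays, numbered 1, 2, 3 and 5. The third group received Jnk1 Adv-shRNA and has 5 arrays, numbered 1 to 5. Adv is the usual short form of adenovirus, a vector that reaches hepatocytes well after injection. The labels give no age, sex, diet, dose, time after injection or hairpin sequence. They describe 1 hairpin label per target, so effects of the Jnk1 target and of this hairpin or vector preparation cannot be told apart. They also do not say that each array is a separate mouse, so error terms measure the spread between these samples, which may be technical.

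Jnk1, encoded by Mapk8, is a stress-activated protein kinase that phosphorylates c-Jun, a subunit of the transcription factor AP-1. The 6 genes have no common pathway. Smcp encodes a cysteine-rich protein of the capsule around sperm mitochondria, and Prm1 encodes protamine 1, which replaces histones in the sperm nucleus. Krt23 encodes a type I keratin, an intermediate filament protein of epithelia. Kcnk1 encodes a two-pore-domain potassium channel known as TWIK-1. Defb1 encodes beta-defensin 1, an antimicrobial peptide secreted by epithelia, and Metrn encodes meteorin, a secreted factor first described in the nervous system.

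The promoters of 4 of the 6 genes are shown because these genes are far apart in the genome and differ in direction or size of change, so their upstream letters can be set side by side. Each is the 250 bases upstream of the annotated start, 5′ to 3′ on the gene's strand, from RefSeq on GRCm38.p6. Capitals mark a match to a motif named after the sequences.

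Smcp, chr3:92589074-92589323, minus strand: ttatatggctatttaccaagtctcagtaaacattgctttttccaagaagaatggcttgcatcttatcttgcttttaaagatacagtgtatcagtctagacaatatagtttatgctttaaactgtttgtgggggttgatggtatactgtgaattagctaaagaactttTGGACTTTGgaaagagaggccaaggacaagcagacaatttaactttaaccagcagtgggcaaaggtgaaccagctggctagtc

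Prm1, chr16:10796824-10797073, minus strand: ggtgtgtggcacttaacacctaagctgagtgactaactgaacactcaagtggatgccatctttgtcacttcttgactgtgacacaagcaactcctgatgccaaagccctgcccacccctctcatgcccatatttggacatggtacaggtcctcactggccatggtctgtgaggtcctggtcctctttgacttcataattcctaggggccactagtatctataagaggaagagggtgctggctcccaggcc

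Krt23, chr11:99493121-99493370, minus strand: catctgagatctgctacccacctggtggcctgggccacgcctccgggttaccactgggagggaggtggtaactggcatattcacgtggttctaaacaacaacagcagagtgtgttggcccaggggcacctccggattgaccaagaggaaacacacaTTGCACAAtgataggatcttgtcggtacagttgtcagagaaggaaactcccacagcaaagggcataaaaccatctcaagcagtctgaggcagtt

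Kcnk1, chr8:125994852-125995101, plus strand: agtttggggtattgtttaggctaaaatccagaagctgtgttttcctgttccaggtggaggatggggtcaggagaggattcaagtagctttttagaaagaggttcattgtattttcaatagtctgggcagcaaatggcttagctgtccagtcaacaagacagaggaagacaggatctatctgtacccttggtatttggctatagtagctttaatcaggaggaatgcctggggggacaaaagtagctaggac

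RefSeq promoters matched 5 of the 6 genes. The Metrn window lies at chr17:25797046-25797295 on the minus strand. No window was used for Defb1. The GC content was 38.0% for Smcp, 44.4% for Kcnk1, 51.6% for Prm1, 52.8% for Krt23 and 65.6% for Metrn, against a median of 52.4% over 32851 windows of the same length. Metrn held 18 CpG dinucleotides and Krt23 held 5, whereas Smcp, Prm1 and Kcnk1 held 0, against a median of 6. The windows thus ranged from CpG-free to CpG-rich.

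Both strands of each window were searched for 7 motifs, with no regard to overlap. They were AP-1 (TGANTCA, found in 6.75% of all windows), the cyclic AMP response element (TGACGTCA, 1.55%), the TATA box (TATAAA, 12.4%), the CCAAT box (CCAAT, 33.8%), the GC box (GGGCGG, 32.7%), C/EBP (TTGCNNAA, 9.56%) and HNF4 (CAAAGTCCA, 0.384%). Smcp held the HNF4 letters as TGGACTTTG, 83 bases upstream of the start. Krt23 held the C/EBP letters as TTGCACAA, 94 bases upstream. Metrn held the CCAAT box at 3 places and the GC box at 2. Prm1 and Kcnk1 held none of the 7. No motif was found in more than 1 of the 5 windows, and the letters alone do not show that a factor binds there.

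The arrays shared 1 scale but differed in their controls. With the highest and lowest 2% of probe sets left out, the mean intensity lay between 149.984 and 149.987 on every array. Medians ran from 41.8 to 58.3, and the highest belonged to GFP shRNA array 2, whose mean correlation with its own group, 0.942, was the lowest of the 14. The 18 probe sets of added hybridisation controls averaged 8.36 ± 0.32 log2 (SD, n = 5) with Jnk1 shRNA, below 8.91 ± 0.08 (SD, n = 4) with GFP shRNA (exact two-sided permutation p = 0.0159) and 8.91 ± 0.10 (SD, n = 5) with vehicle (exact p = 0.00794). The probe set for the 5′ end of 18S ribosomal RNA read 52.0, 1976, 195, 702 and 390 on Jnk1 shRNA arrays 1 to 5, and 851 to 1567 on the 9 control arrays. The ratio of the 3′ to the 5′ Gapdh probe set was 0.708 to 0.758 with Jnk1 shRNA and 0.656 to 0.750 on the control arrays. The part of these controls in the results was not tested. The spike-in level was used as a covariate in an alternative fit. Its highest value with Jnk1 shRNA, 8.758, lay under the lowest of the control arrays, 8.769 with vehicle. Spike-in level and hairpin therefore cannot be told apart. The targeted gene Mapk8 was at 40.2% of its GFP shRNA level on 1 probe set, a log2 difference of -1.31 ± 0.11 (SE; limma adjusted p = 3.5e-07). Its other probe sets differed by -1.12 and -0.12. The hepatocyte genes Alb, Apoa1, Ttr, Fgb, Cps1 and Tat were all far above the array's low end, with a summed normalized intensity between 28224 and 31607 on every array.

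What counts as a signal was set from the arrays. No detection calls were used here, so 2 limits stand in for them. Both are on the scale of the normalized values, so a deposited intensity near a limit can fall on its other side. The tests kept the 13575 probe sets left after the lowest 40% by mean were removed, and the lowest mean among those kept was an intensity of 28.4, or 4.83 log2. A list of 40 genes restricted to organs such as eye, pituitary, pancreatic islet and muscle had 34 genes on the array, with 45 probe sets. Their median was an intensity of 9.01 and their 95th percentile 30.9, while 1 of them, for the neuropeptide gene Oxt, reached 177. An intensity under about 30 is therefore the level of genes that liver is not known to use, and a fold change against it has no firm size. Of the 11 probe sets of the 6 genes, 8 passed the filter. Those of Smcp and Metrn passed it narrowly, at the 40.7 and 40.5 percentile of mean intensity. For Smcp, Krt23, Metrn 1427100_at and Kcnk1 1455896_a_at both control means lay under the limit, as did the vehicle mean of Kcnk1 1448690_at, so these probe sets passed through the livers given the Jnk1 hairpin.

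Smcp, the sperm mitochondrial capsule gene, was read by 1 probe set. Its deposited intensities were 10.9, 6.7, 3.1, 11.9 and 10.1 in vehicle arrays 1 to 5, and 15.4, 6.7, 15.7 and 26.4 in GFP shRNA arrays 1, 2, 3 and 5. They were 170.0, 176.5, 339.8, 227.0 and 220.6 in Jnk1 shRNA arrays 1 to 5. All 9 control arrays lay under the limit of 28.4, and all 5 arrays of the Jnk1 hairpin lay far above it, with no overlap. The normalized log2 level was 3.00 ± 0.69 (SD, n = 5) with vehicle, 3.60 ± 1.21 (SD, n = 4) with GFP shRNA and 7.76 ± 0.40 (SD, n = 5) with Jnk1 shRNA. The log2 difference was 4.16 ± 0.47 (SE) from GFP shRNA, 17.8-fold. With every value under 28.4 raised to it, which counts the control livers as at the limit, this became 2.93 or 7.62-fold. The difference from vehicle was 4.76 ± 0.44 (SE), and 2.93 with values so raised.

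Prm1, the protamine gene, went the other way, and only 1 of its 3 probe sets carried signal. On that probe set, 1415955_x_at, the intensities were 60.6, 66.5, 45.1, 55.0 and 37.6 with vehicle and 39.5, 136.3, 53.7 and 82.2 with GFP shRNA. They were 20.3, 17.1, 12.7, 23.9 and 11.1 with Jnk1 shRNA. Every control array was above 28.4 and every array of the Jnk1 hairpin was below it, so the groups did not overlap. The highest value came from GFP shRNA array 2, the array that correlated least with its group. Mean log2 levels were 5.73 ± 0.28 (SD, n = 5), 6.10 ± 0.75 (SD, n = 4) and 4.16 ± 0.49 (SD, n = 5) in that order. The log2 difference of Jnk1 shRNA was -1.95 ± 0.32 (SE) from GFP shRNA and -1.57 ± 0.30 (SE) from vehicle, sizes of 3.85-fold and 2.98-fold. With values raised to 28.4 they were -1.28 and -0.91. The suffix _x_at marks probes that may also bind other transcripts.

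The other Prm1 probe sets, 1437054_x_at and 1439379_x_at, read at most 4.5 and 3.19 on any array. In all 3 groups they stayed at the level of genes foreign to liver. The signal called Prm1 on this array therefore rested on 1 probe set that the remaining pair did not share, and these values do not settle which transcript it read.

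Krt23, the type I keratin, was read by 1 probe set. Intensities were 30.5, 8.7, 32.7, 23.1 and 33.7 with vehicle and 22.8, 25.9, 5.4 and 15.3 with GFP shRNA. With Jnk1 shRNA they were 157.0, 195.5, 206.5, 224.2 and 160.3. Vehicle arrays lay around the limit, GFP shRNA arrays under it, and the arrays of the Jnk1 hairpin were tightly grouped above both. Log2 levels were 4.56 ± 0.82 (SD, n = 5), 3.74 ± 0.95 (SD, n = 4) and 7.52 ± 0.23 (SD, n = 5). The log2 difference was 3.79 ± 0.42 (SE) from GFP shRNA, 13.8-fold, or 2.70 and 6.48-fold with values raised. From vehicle it was 2.96 ± 0.39 (SE), 7.80-fold, or 2.55 with values raised.

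Kcnk1, the TWIK-1 channel gene, had the highest signal of the 6 and was the only 1 whose GFP shRNA arrays did not overlap vehicle on its main probe set. On 1448690_at the intensities were 23.4, 5.9, 8.2, 22.2 and 1.9 with vehicle, 46.6, 96.0, 39.97 and 97.4 with GFP shRNA, and 780.9, 708.1, 1003.3, 733.6 and 523.3 with Jnk1 shRNA. The 3 groups formed 3 steps with no overlap between any of them. Log2 levels were 3.17 ± 1.35 (SD, n = 5), 5.97 ± 0.64 (SD, n = 4) and 9.50 ± 0.34 (SD, n = 5). The log2 difference of Jnk1 shRNA from GFP shRNA was 3.53 ± 0.51 (SE), 11.5-fold, and did not change with values raised to 28.4. From vehicle it was 6.32 ± 0.48 (SE), or 4.67 with values raised, 25.4-fold. GFP shRNA differed from vehicle by 2.79 ± 0.51 (SE), or 1.14 with values raised.

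The second Kcnk1 probe set, 1455896_a_at, read 4.4, 4.1, 1.1, 15.1 and 8.2 with vehicle and 25.7, 38.8, 15.1 and 43.6 with GFP shRNA. It read 367.0, 410.1, 471.6, 382.8 and 263.7 with Jnk1 shRNA. The lowest GFP shRNA array met the highest vehicle array here, while the Jnk1 hairpin stood clear of both. Its log2 difference was 3.82 ± 0.46 (SE) from GFP shRNA, and 3.54 with values raised. The step from vehicle to GFP shRNA was 2.30, but 0.14 with values raised. The 2 probe sets thus gave the large step alike, and the small step was above the limit on 1 of them.

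Defb1, the beta-defensin gene, was read by 2 probe sets that stood at or above the limit in nearly every array. On 1419491_at the intensities were 52.9, 29.6, 37.3, 27.7 and 36.3 with vehicle, 38.0, 61.1, 48.0 and 52.0 with GFP shRNA, and 439.3, 357.4, 496.8, 501.5 and 495.6 with Jnk1 shRNA. Both control groups overlapped each other and lay well under the Jnk1 hairpin. Log2 levels were 5.19 ± 0.33 (SD, n = 5), 5.52 ± 0.18 (SD, n = 4) and 8.80 ± 0.22 (SD, n = 5). The log2 difference was 3.28 ± 0.16 (SE) from GFP shRNA, 9.72-fold, and 3.61 ± 0.16 (SE) from vehicle, 12.2-fold. This was the smallest error of the 6 genes.

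The other Defb1 probe set, 1419492_s_at, whose suffix marks probes shared by several transcripts, gave the same order at a smaller size. It read 25.4, 27.1, 40.6, 42.2 and 35.6 with vehicle, 38.9, 74.8, 48.0 and 38.9 with GFP shRNA, and 239.8, 194.7, 259.0, 236.8 and 216.0 with Jnk1 shRNA. The arrays of the Jnk1 hairpin again lay above all others. The log2 difference was 2.29 ± 0.21 (SE) from GFP shRNA, 4.87-fold, and 2.72 ± 0.20 (SE) from vehicle.

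Metrn, the meteorin gene, gave the weakest of the rises, and on 1 of 2 probe sets. On 1427100_at the intensities were 7.7, 40.4, 10.9, 20.5 and 32.2 with vehicle and 4.0, 37.2, 9.6 and 33.0 with GFP shRNA. They were 93.4, 76.6, 92.7, 71.9 and 76.1 with Jnk1 shRNA. On the normalized scale control arrays scattered on both sides of the limit, with 2 of vehicle and 1 of GFP shRNA above it. The arrays of the Jnk1 hairpin lay close together above them all. Log2 levels were 4.24 ± 1.11 (SD, n = 5), 3.76 ± 1.34 (SD, n = 4) and 6.36 ± 0.15 (SD, n = 5). The log2 difference was 2.61 ± 0.56 (SE) from GFP shRNA, 6.09-fold, or 1.5 and 2.83-fold with values raised. From vehicle it was 2.13 ± 0.53 (SE), or 1.37 with values raised.

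The second Metrn probe set, 1427101_at, read 10.5, 3.3, 3.6, 22.1 and 18.7 with vehicle, 21.8, 18.8, 14.4 and 22.7 with GFP shRNA, and 17.98, 5.3, 20.3, 20.6 and 11.6 with Jnk1 shRNA. It stayed under 28.4 on all 14 arrays, and the 3 groups overlapped. Its log2 difference of Jnk1 shRNA was -0.22 from GFP shRNA and 0.70 from vehicle.

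**Figure D1:**
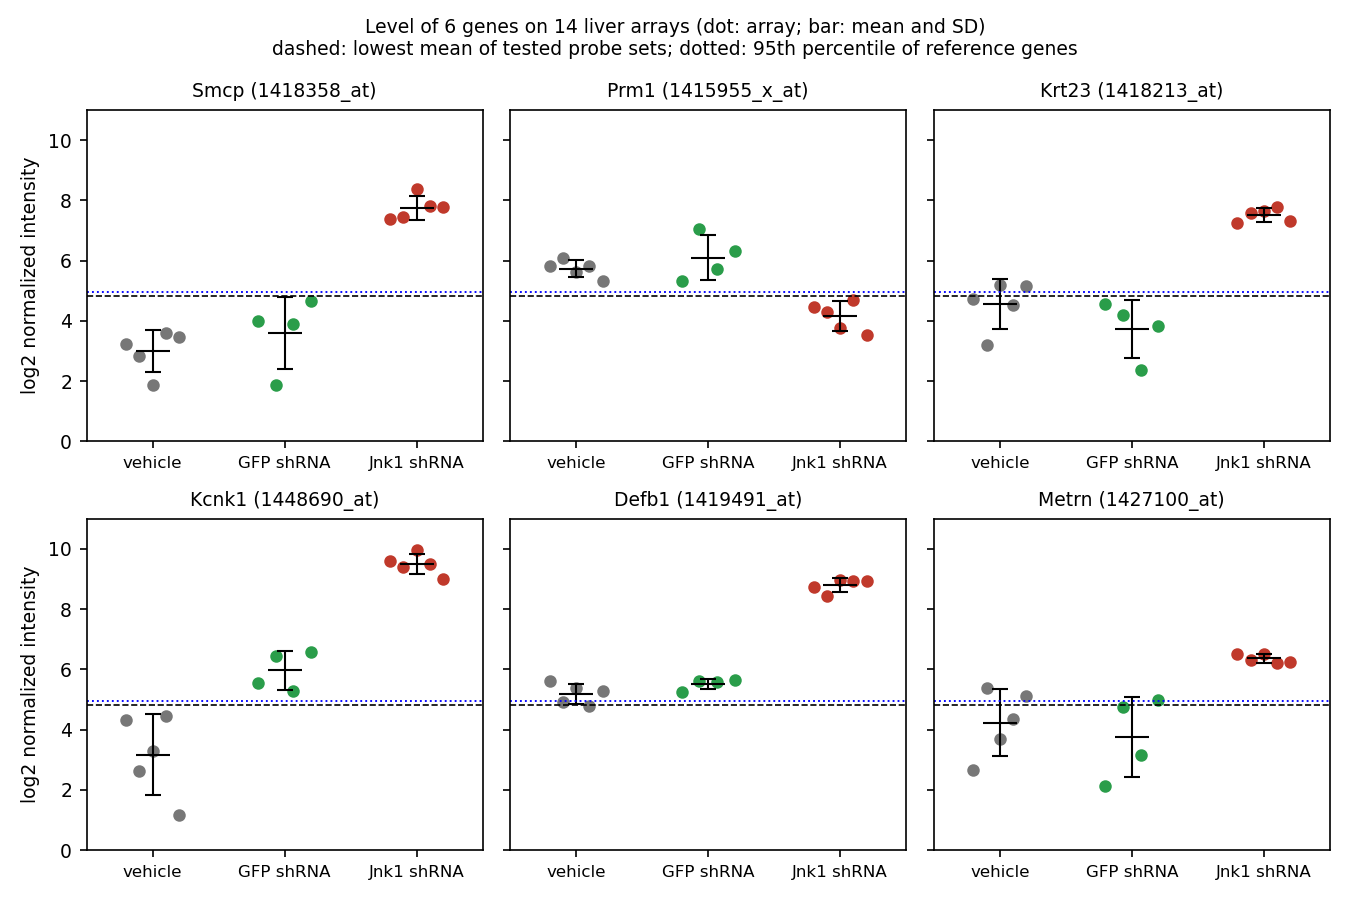
Log2 normalized intensity of the main probe set of each gene, 1 panel per gene, for 5 vehicle, 4 GFP shRNA and 5 Jnk1 shRNA arrays; dots are arrays, bars the mean and SD, the dashed line the lowest mean among tested probe sets and the dotted line the 95th percentile of genes restricted to other organs. The Jnk1 shRNA dots lie above both other groups in 5 panels and below them for Prm1, and the GFP shRNA dots lie between the other groups for Kcnk1.

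**Figure D2:**
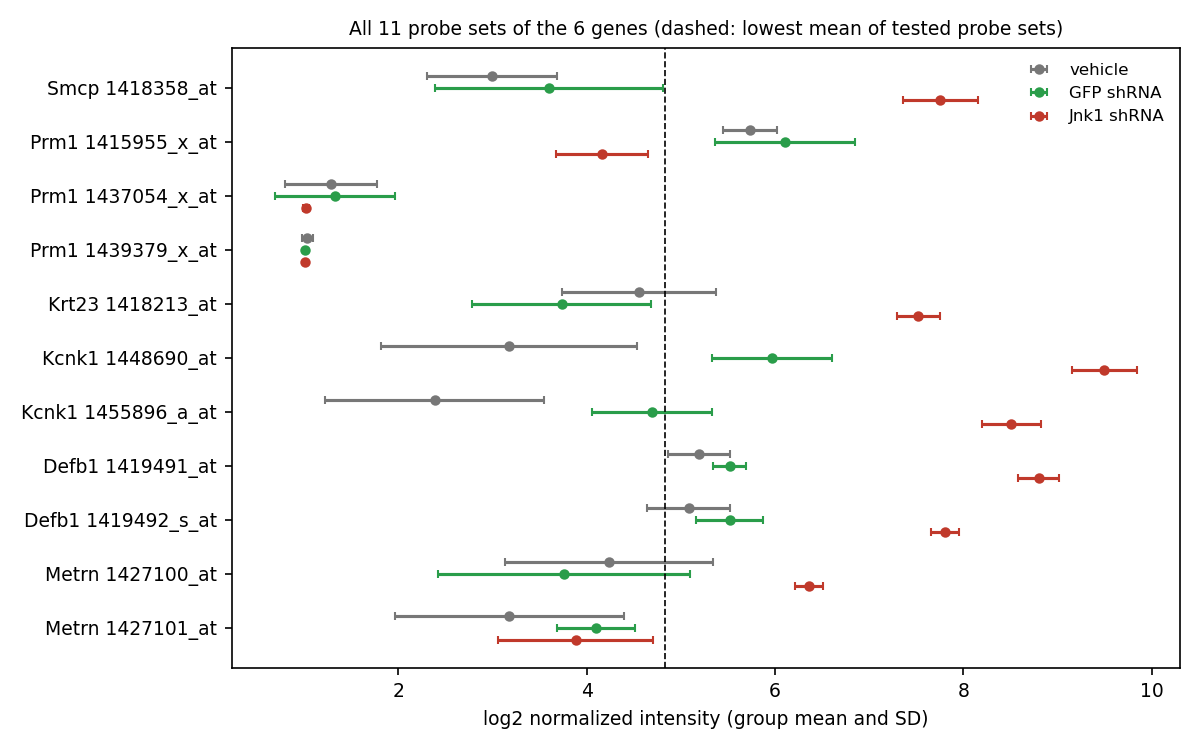
Group mean and SD of log2 normalized intensity for all 11 probe sets of the 6 genes, with 5 vehicle, 4 GFP shRNA and 5 Jnk1 shRNA arrays; the dashed line is the lowest mean among tested probe sets. Both probe sets of Kcnk1 and of Defb1 show the rise, whereas 1 of 2 for Metrn and 1 of 3 for Prm1 show a difference.

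Set side by side, all 6 genes were at least 2-fold apart between Jnk1 shRNA and GFP shRNA, where 5.23% of the 13575 probe sets were, and their groups did not overlap, which held for 28.1% of probe sets. Of the 6, 5 were higher (2.93% of probe sets were at least 2-fold higher) and 1 was lower (2.30%). In the comparison with vehicle all 6 were at least 2-fold apart too, against 6.08% of probe sets (3.34% higher and 2.75% lower), and none overlapped, against 27.7%. By limma 33.1% of all tested probe sets passed against GFP shRNA, 37.6% against vehicle and 2.58% between the controls. Nothing is read from these counts, since the genes were chosen on these differences. The comparisons share the Jnk1 shRNA arrays. Between GFP shRNA and vehicle, 1 of the 6 (Kcnk1) was at least 2-fold apart, against 1.39% of probe sets (1.08% higher and 0.317% lower), and its groups alone did not overlap, against 6.30% of probe sets. The other 5 differed there by 0.60 (Smcp), 0.37 (Prm1), -0.82 (Krt23), 0.33 (Defb1) and -0.48 (Metrn) on the log2 scale, with overlapping groups.

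The low spike-in level of the Jnk1 shRNA arrays moved with these groups, with no overlap. Neither differences kept nor calls lost with it as a covariate can separate spike-in level from hairpin. With the spike-in level in the model as a covariate, the log2 differences from GFP shRNA were 4.73 for Smcp, 3.79 for Krt23, 3.37 for Kcnk1, 3.11 for Defb1, 2.85 for Metrn and -2.14 for Prm1. Jnk1 shRNA array 2 had the spike-in level nearest the controls, at 8.76 log2. Used alone for its group, it gave 3.80 for Smcp, 3.81 for Krt23, 3.43 for Kcnk1, 2.89 for Defb1, 2.52 for Metrn and -1.77 for Prm1. The value of Defb1 on that array alone lay below its range with any 1 array left out, and Smcp was further from 0 with the covariate than without it.

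**Figure D3:**
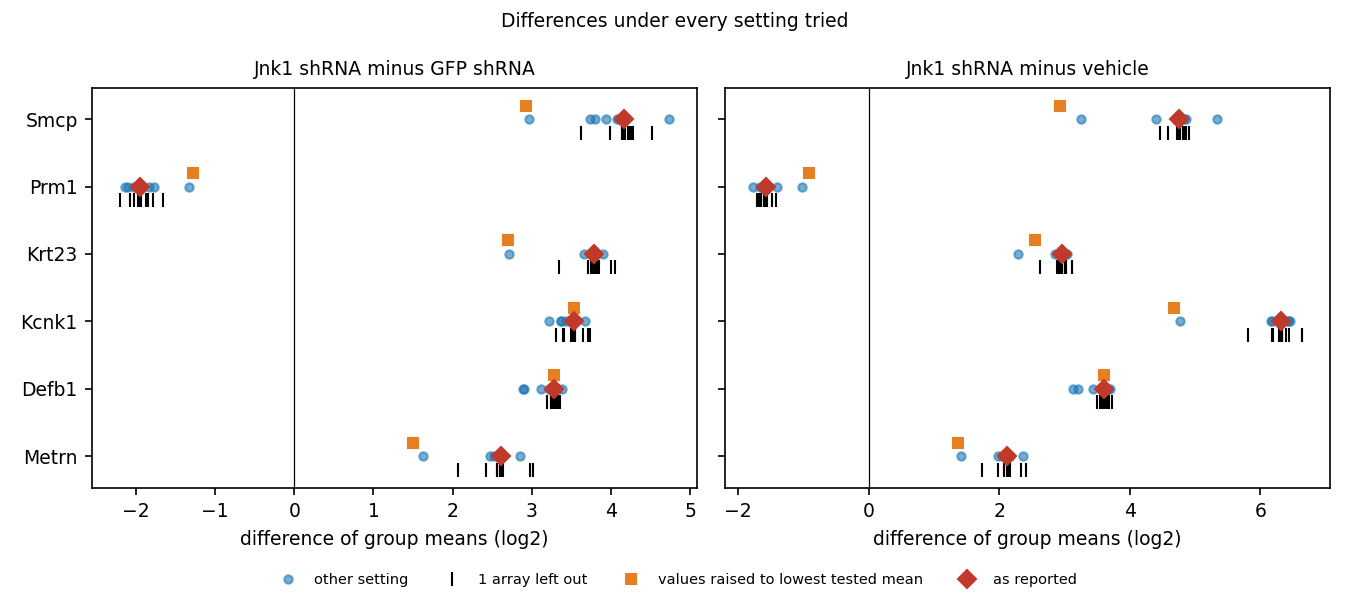
Difference of group means on the log2 scale for the main probe set of each gene, Jnk1 shRNA minus GFP shRNA (left) and minus vehicle (right), under every processing setting tried; diamonds are the values as reported, ticks leave out 1 array, squares raise all values to the lowest mean among tested probe sets and dots are the other settings. No mark crosses 0, and raising the values shortens the differences of Smcp, Krt23, Metrn and Prm1 most in the left panel, while Defb1 and Kcnk1 keep theirs there.

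Leaving out 1 array at a time gave log2 differences from GFP shRNA of 3.62 to 4.51 for Smcp, 3.34 to 4.05 for Krt23, 3.31 to 3.74 for Kcnk1, 3.19 to 3.36 for Defb1, 2.06 to 3.01 for Metrn and -2.20 to -1.66 for Prm1. No single array carried any of the 6, but the genes were picked on these arrays and their groups did not overlap. The ranges are therefore no independent check.

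Within groups the 6 genes did not follow one another closely. After group means were removed, correlations between pairs of genes over the 14 arrays ran from -0.50 (Smcp and Prm1) to 0.48 (Prm1 and Metrn). The 2 probe sets of Kcnk1 correlated at 0.13 and those of Defb1 at -0.08. All pairs come from the same arrays, and many of the control values behind them lie under the background limit.

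The named genes whose log2 levels correlated best with each of the 6 over the 14 arrays are given as a description, since any gene that differs between the same groups will correlate. For Smcp they were Thoc6 (r = 0.98, and 0.87 after group means were removed), Ndufa8 (0.98 and 0.77) and Itfg1 (0.97 and 0.82). For Prm1 they were Csnk2a2 (0.98 and 0.90), Pmm2 (0.96 and 0.88) and Slc25a37 (0.95 and 0.77). For Krt23 they were Akr1d1 (0.96 and 0.71), Cth (0.96 and 0.62) and Auh (0.95 and 0.54). For Kcnk1 they were Dynll1 (0.96 and 0.38), Cdkn1a (0.96 and 0.45) and Cyp3a11 (0.96 and 0.49). The within-group correlation, which is part of the correlation they were chosen on, was lowest for the Kcnk1 genes. Defb1 was matched by Fis1 (0.99 and 0.80), Hsd17b6 (0.99 and 0.52) and Slc16a1 (0.99 and 0.53), and Metrn by Rps2 (0.91 and 0.74), Cyth2 (0.90 and 0.70) and Pmpca (0.90 and 0.70). Cdkn1a encodes the cell cycle inhibitor p21, and its group means stood in the same order as those of Kcnk1, on which it was picked. Its log2 differences with Jnk1 shRNA were 2.32 from GFP shRNA and 3.40 from vehicle, and 1.08 between GFP shRNA and vehicle.

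Other genes of the same tissues and families were taken from 6 lists with 130 genes, of which 115 were on the array and 29 passed the filter. By limma, 8 of the 29 (27.6%) passed the test between Jnk1 shRNA and GFP shRNA, 3 higher and 5 lower, with a median log2 difference of -0.15. Over all 8027 genes tested with 1 probe set each, 34.1% passed, 17.7% higher and 16.5% lower, so the lists were near the background. Against vehicle 9 of 29 passed (31.0%, beside 38.6% of all genes, 19.3% in either direction), 3 higher and 6 lower, and between GFP shRNA and vehicle 1 of 29 (3.45%, beside 2.80% of all genes, 2.18% higher and 0.623% lower). In bulk tissue, fewer cells of a type and less RNA per cell cannot be told apart. The 86 listed genes on the array that did not pass the filter have no test.

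Of 35 other testis genes listed 33 were on the array and 6 passed the filter, and 0 of the 6 passed the test in any of the 3 comparisons, with medians of -0.13, -0.07 and -0.02. By limma 0 of the 6 had an unadjusted p under 0.05 either. Prm2, Tnp1 and Tnp2 serve sperm chromatin as Prm1 does, and Prm2, Prm3 and Tnp2 lie beside it in the genome. In every group Prm2, Prm3, Tnp1 and Tnp2 had mean intensities under 28.4, the highest being 24.0 for Prm3 with vehicle.

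Among 19 keratins on the array 5 passed the filter. Against GFP shRNA, where 16.5% of all genes were lower, 2 of the 5 fell with the Jnk1 hairpin. These were Krt18 (log2 difference -1.11 ± 0.20 SE from GFP shRNA, limma adjusted p = 4.16e-04) and Krt8 (-0.996 ± 0.20 SE, limma adjusted p = 0.00125), the keratin pair of the hepatocyte itself. Against vehicle they fell by 0.69 and 0.61 on the log2 scale (limma adjusted p = 0.00725 and 0.0184). Krt23 was thus higher where both hepatocyte keratins fell. Krt8 did not pass against vehicle without vehicle array 1 (-0.49, adjusted p = 0.0524), and with the spike-in covariate neither passed against GFP shRNA (Krt18 -0.88, adjusted p = 0.066; Krt8 -0.86, adjusted p = 0.0865) or vehicle (Krt18 -0.46, adjusted p = 0.316; Krt8 -0.47, adjusted p = 0.331).

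Of 23 bile duct and epithelial genes 19 were on the array and 7 passed the filter. Against GFP shRNA, Cd24a, a surface glycoprotein, rose by 0.70 ± 0.21 (SE; limma adjusted p = 0.018), and Spint2, an epithelial protease inhibitor, fell by 0.44 on the log2 scale (limma adjusted p = 8.39e-05). Against vehicle the differences were 0.86 and -0.72 (limma adjusted p = 0.0027 and 2.54e-07). Spint2 was also the 1 listed gene lower with GFP shRNA than with vehicle, by -0.27 (limma adjusted p = 0.0391). Cd24a did not pass against GFP shRNA without GFP shRNA array 1 or 3 (limma adjusted p = 0.0513 and 0.0531). With the intensities as deposited it did not pass either (0.59, limma adjusted p = 0.0598). Spint2 did not pass against GFP shRNA once every array was given an equal median (-0.23, limma adjusted p = 0.137). The Spint2 difference of GFP shRNA from vehicle was lost without any one of vehicle arrays 2 to 5, GFP shRNA arrays 1, 2, 3 or 5, or Jnk1 shRNA arrays 4 or 5, with adjusted p up to 0.0965.

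None of the 7 other two-pore-domain potassium channel genes on the array passed the filter, so Kcnk1 was the family's only tested gene. Of 19 defensin and antimicrobial genes 17 were on the array and 5 passed, none of them a defensin. Against GFP shRNA, Leap2, a liver-derived peptide, rose by 0.77 ± 0.14 (SE; limma adjusted p = 5.31e-04), and Slpi, a secreted protease inhibitor, rose by 0.96 ± 0.21 (SE; limma adjusted p = 0.00223). Lyz2, the lysozyme of macrophages, fell by 0.69 on the log2 scale (limma adjusted p = 0.0196). Against vehicle, Slpi differed by 1.11, Lyz2 by -0.58 and Leap2 by 0.36 (limma adjusted p = 3.32e-04, 0.031 and 0.0447). Each of these was smaller than the differences of Defb1. That gene was picked for its large difference on these arrays, so nothing is read from this.

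Several of these calls depended on single arrays. Lyz2 did not pass against GFP shRNA without GFP shRNA array 2 or Jnk1 shRNA array 4 (adjusted p = 0.0508 and 0.0519), nor against vehicle without vehicle array 1, 3 or 4 or Jnk1 shRNA array 4 or 5 (adjusted p from 0.0577 to 0.0872). Leap2 did not pass against vehicle without vehicle array 1, 3 or 4, GFP shRNA array 1 or 5, or Jnk1 shRNA array 1, 3 or 4 (adjusted p from 0.0505 to 0.115). It also did not pass there with no filter, no intensity trend or the replicate block (limma adjusted p = 0.0749, 0.0647 and 0.0864). With no filter Lyz2 did not pass against vehicle either (limma adjusted p = 0.0598). With the spike-in covariate Leap2, Slpi and Lyz2 lost their calls against GFP shRNA, at log2 differences of 0.49, 0.55 and -0.95 (adjusted p = 0.126, 0.258 and 0.0656). Against vehicle they lost them too, at 0.07, 0.69 and -0.84 (adjusted p = 0.858, 0.125 and 0.0818). Once every array was given an equal median, Lyz2 did not pass against GFP shRNA (-0.48, adjusted p = 0.0784) or vehicle (-0.50, adjusted p = 0.0505).

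Of 22 nervous system genes 20 were on the array and 6 passed the filter. Syt1, a synaptic vesicle calcium sensor, fell by 0.79 on the log2 scale against GFP shRNA (limma adjusted p = 6.41e-04) and by 0.59 against vehicle (limma adjusted p = 0.00298). Gfra1, a receptor for glial cell line-derived neurotrophic factor, fell by 0.34 against vehicle (limma adjusted p = 0.0137), a call lost once every array was given an equal median (adjusted p = 0.188). With the spike-in covariate Syt1 did not pass against GFP shRNA (-0.58, adjusted p = 0.1) or vehicle (-0.38, adjusted p = 0.257), nor did Gfra1 against vehicle (-0.32, adjusted p = 0.209). Metrnl, the meteorin-like relative of Metrn, differed by 0.16 from GFP shRNA (limma adjusted p = 0.629).

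**Figure D4:**
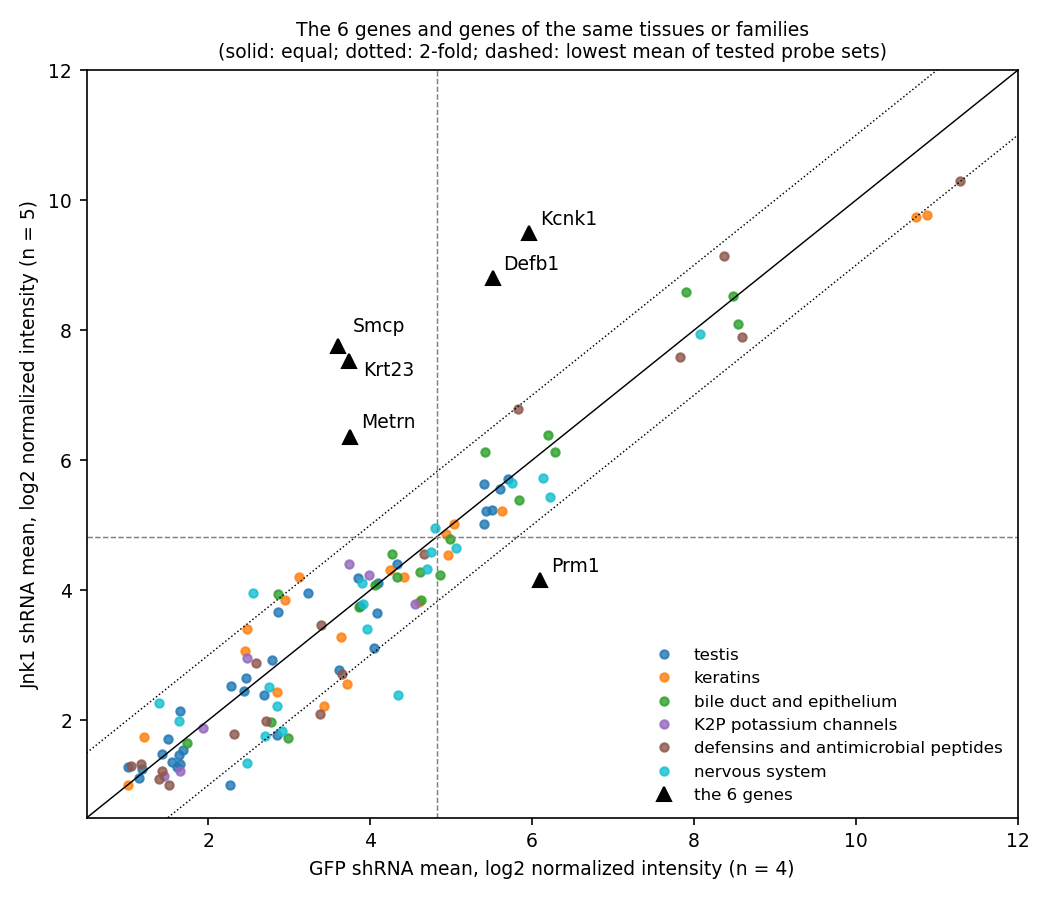
Mean log2 normalized intensity with GFP shRNA (horizontal, n = 4) against Jnk1 shRNA (vertical, n = 5) for the 6 genes (triangles) and the genes of 6 tissue and family lists (dots); the solid line marks equal levels, dotted lines a 2-fold difference and dashed lines the lowest mean among tested probe sets. The 5 genes that were higher lie far above the upper dotted line, Prm1 lies below the lower one, and most dots sit near the solid line or under the dashed limits.

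Markers of the cells in which the 6 genes are best known were mostly under the limit. Of 6 bile duct markers on the array 5 had means under 28.4 in each group, including Krt7, Krt19, Epcam and Sox9, and the sixth, Tspan8, was at 73.2, 77.9 and 70.2 with vehicle, GFP shRNA and Jnk1 shRNA. The summed intensity of the 6 was 104.6 to 202 with vehicle, 152 to 169 with GFP shRNA and 126 to 168 with Jnk1 shRNA. Nerve and Schwann cell markers (8 on the array, 3 kept) summed to 212 to 266, 212 to 290 and 155 to 181 in the same order, and 1 of the 3, Syt1, fell (means of 65.1, 74.6 and 43.3), while Sox10 was at 63.4, 54.1 and 50.3. Sertoli, Leydig and germ cell markers (11 on the array, 3 kept) summed to 297 to 356, 249 to 362 and 486 to 584. Inhbb, a subunit of inhibin and activin, was at 120.4, 109 and 115. Star, the other kept marker beside Cyp17a1, was lower with Jnk1 shRNA, at 35.0, 46.8 and 21.6. Its log2 difference from GFP shRNA was -1.11 (limma adjusted p = 0.0663), with no overlap of those groups. The higher sum with Jnk1 shRNA came with Cyp17a1, a steroid hydroxylase known from the Leydig cell and picked here after its values were seen. Its mean intensity was 99.1, 90.7 and 336. Cyp17a1 was thus above 28.4 in both control groups, so it is not read here as a sign of Leydig cells. Its log2 difference from GFP shRNA was 1.89 ± 0.27 (SE; limma adjusted p = 5.48e-05), while the germ cell genes Tnp1, Tnp2 and Prm2 stayed under 28.4. Cyp17a1 was the 1 of 3 tested markers of that list that passed against GFP shRNA, where 34.1% of all genes passed. The count was 2 without vehicle array 2 or Jnk1 shRNA array 2, and the direction of the added marker is not given here.

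Markers of cells native to liver moved with the groups too, and their part in the differences of the 6 genes was not tested. Against GFP shRNA, 6 of 9 Kupffer cell and macrophage markers tested fell, as did 3 of 8 endothelial, 3 of 5 stellate cell, 2 of 3 erythroid and 1 of 6 hepatocyte markers, and none of these lists had a member that rose. Over all genes tested 16.5% were lower in that comparison. Against vehicle the counts that fell were 3 of 9, 5 of 8, 2 of 5, 3 of 3 and 3 of 6 in the same order, with 0 that rose, beside 19.3% of all genes lower. Between GFP shRNA and vehicle 2 of 9 Kupffer cell markers were higher and 2 lower, beside 2.18% and 0.623% of all genes. The GFP shRNA group itself thus differed from vehicle. The endothelial count was 2 without any one of vehicle arrays 1 to 4, GFP shRNA arrays 1, 3 or 5 or Jnk1 shRNA arrays 3 to 5, the stellate count 2 without vehicle array 4 or 5, GFP shRNA array 2 or 3 or Jnk1 shRNA arrays 2 to 5, and each was 1 once every array was given an equal median. The hepatocyte count was 0 without GFP shRNA array 3 or Jnk1 shRNA array 2, 3 or 4, and 2 without Jnk1 shRNA array 1. With the intensities as deposited it was 5. These limits are for the comparison with GFP shRNA. Against vehicle, with 1 array left out, 3 to 4 Kupffer cell, 3 to 5 endothelial and 2 to 4 stellate cell markers passed. For erythroid and hepatocyte markers the counts were 2 to 3 and 1 to 3. Summed Kupffer cell markers were 2767 to 4746 with vehicle, 4841 to 5413 with GFP shRNA and 2666 to 3340 with Jnk1 shRNA. Summed erythroid markers were 629.8 to 757, 597 to 730.3 and 175 to 272. Endothelial markers summed to 1148 to 1245, 983 to 1248 and 780.2 to 914, and stellate cell markers to 1863 to 2095, 2002 to 2261 and 1389 to 1543. T and NK cell markers (8 on the array, 3 kept) summed to 109.6 to 160.3 with vehicle, 186 to 337 with GFP shRNA and 281 to 319 with Jnk1 shRNA. All 3 rose against vehicle, where 19.3% of all genes were higher, with a median log2 difference of 1.68. Between GFP shRNA and vehicle that median was 1.64, and 1 of 3 passed as higher, beside 2.18% of all genes. Between Jnk1 shRNA and GFP shRNA 0 of 3 passed, beside 34.1% of all genes. Neutrophil markers (7 on the array, 4 kept) summed to 329 to 1109, 302 to 791 and 462 to 735, and 0 of the 4 passed limma in any comparison, with 1, 1 and 0 at an unadjusted p under 0.05; against GFP shRNA 1 passed without vehicle array 3, GFP shRNA array 1 or Jnk1 shRNA array 1.

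The chromosome neighbours of the 6 genes were also read, as the 5 protein-coding genes on either side of each in RefSeq. Of 60 neighbours 36 were on the array and 14 passed the filter. Tomm20, a neighbour of Kcnk1 that encodes a mitochondrial import receptor, rose by 0.40 against GFP shRNA and 0.49 against vehicle (limma adjusted p = 0.0022 and 1.58e-04). Near Metrn, Ciao3 rose by 0.56 and 0.59 (limma adjusted p = 0.00498 and 0.00177), and Stub1, a ubiquitin ligase, rose by 0.35 against GFP shRNA (limma adjusted p = 0.00532), a call lost with the spike-in covariate (0.24, adjusted p = 0.25). Near Prm1, Litaf rose by 0.32 against vehicle (limma adjusted p = 0.00122). These 3 of 14 against GFP shRNA are 21.4% beside 34.1% of all genes, none reached 2-fold, and between GFP shRNA and vehicle 0 of 14 passed by limma, with 3 at an unadjusted p under 0.05. The 3 against GFP shRNA became 5 without GFP shRNA array 2, and the 0 between the controls became 1 without vehicle array 1.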

How the data were processed

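Probe set intensities of 14 liver arrays were used as deposited, on a linear scale. Per the labels' protocols, RNA came from pulverized liver by a column kit and was labelled with biotin. The labels used here name no software, background correction or detection calls for the deposited intensity values; equal trimmed means were measured from the values. The members and all gene lists were chosen with earlier results of these data known.

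Intensities were quantile normalized, values under the 5th percentile (an intensity of 2.01) were set to it, and log2 was taken. The 64 control probe sets and the 40% with the lowest mean were left out of tests. Groups were compared in limma 3.58.1 (R 4.3.3) with lmFit and eBayes with an intensity trend over all 14 arrays, with Benjamini-Hochberg adjustment over the 13575 probe sets kept and a threshold of 0.05. The number of arrays limits the precision. Standard errors of the 6 genes come from this fit, and no test is given for them.

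The platform annotation gave 1 symbol for 20393 probe sets, several for 691 and none for 1606; genes were named only from the first kind, and 20364 matched RefSeq by gene ID. A gene is represented by its probe set of highest mean. For the 6 genes all probe sets are named; from each tissue or family list every gene that passed, or the 3 of smallest p where more than 5 passed; and for each gene the 3 named genes of highest correlation. Cyp17a1 and the chromosome neighbours were named after their values were seen. The labels do not say whether equal sample numbers pair the arrays, and the main fit did not pair them. Over 13 same-numbered pairs the correlation of deviations from group means ran from -0.24 to 0.12, which cannot show that no pairing existed. No array pair was identical. Alternatives in scaling, floor, filter, model and arrays left out are in the closing part. On simulated data with known changes the fit recovered a greater share of larger changes. Promoter windows are the RefSeq sequences upstream of the start, on GRCm38.p6.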

Additional observations from a re-analysis of the deposited data

Results flagged for a closer look

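In groups of 4 or 5 arrays, 33 groups of values (11 probe sets in 3 groups) were checked for an array far from the others, and 4 had one. In these 4 most of the other arrays were tied at the floor, so no rate by chance is set beside the count. All 4 lie on the Prm1 probe sets without signal, on the log2 scale of normalized intensity. On 1437054_x_at, vehicle array 4 read 2.13 against 1.01 to 1.26 in the others, GFP shRNA array 1 read 2.29 with the others at the floor of 1.01, and Jnk1 shRNA array 3 read 1.08 with the others at 1.01. On 1439379_x_at, vehicle array 1 read 1.14 with the others at 1.01. All these values are far under the limit of 4.83.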

How the results depend on the processing

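All 6 genes stayed at least 2-fold apart from GFP shRNA under all 28 alternatives, and from vehicle too, except that 5 of 6 did with values raised to 28.4, where Prm1 missed. Raising values and using Jnk1 shRNA array 2 alone were chosen after seeing the data. Of 498 values of the main probe sets under alternatives, 20 moved by over 1 SD, and the 2 that lost or changed their sign were differences of GFP shRNA from vehicle (Smcp 0 with values raised; Metrn 0.06 without GFP shRNA array 1). A pseudocount of 16 shortened the difference from GFP shRNA to 2.96 for Smcp, 2.71 for Krt23, 2.90 for Defb1, 1.63 for Metrn and -1.33 for Prm1. For Kcnk1 it gave 3.21. Signal over background limits these sizes.

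Probe sets that passed numbered 4497 against GFP shRNA, 5099 against vehicle and 350 between the controls. They became 2790 and 3128 with 1 probe set per gene (fewer tested), 2172 and 2858 with the spike-in covariate, and 1330 and 1906 with Jnk1 shRNA array 2 alone, a lone array assumed to vary like the other groups. The count between the controls was 209 with only 2 groups fitted and 198 to 383 with 1 array left out, lowest without GFP shRNA array 5. Listed genes that passed became 5 and 6 with 60% left out, 2 and 3 with the spike-in covariate, and 0 and 2 with Jnk1 shRNA array 2 alone, where Leap2 against vehicle turned to -0.0102 (adjusted p = 0.986). With 1 array left out they numbered 6 to 12 against vehicle, lowest without vehicle array 1. Between the controls the 1 listed gene became 0 without an intensity trend, with 2 groups fitted or with the replicate block, and 0 to 1 with an array left out. Genes of the 6 at least 2-fold apart between the controls were 3 with array weights and 1 to 2 with an array left out, 2 without vehicle array 2 or GFP shRNA array 1 or 2. With the replicate block, 4101, 4825 and 247 probe sets passed. Giving every array an equal median moved the median of all probe sets to 0.09 (Jnk1 shRNA minus GFP shRNA) and -0.11 (GFP shRNA minus vehicle). For changes not named, the cause was not tested.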
